A study of Homo sapiens with 8 samples.

Results

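Platinum drugs enter and leave tumor cells through proteins that normally move copper, and drug conjugates leave through pumps of the ABC family. The transcripts of 10 genes of this machinery were followed on the arrays: the copper importer SLC31A1 and its relative SLC31A2, the copper-exporting ATPases ATP7A and ATP7B, the pumps ABCC1, ABCC2, ABCC3, ABCB1 and ABCG2, and the glutathione transferase GSTP1. They were picked by name, with earlier results of these data known. Every array probe whose RefSeq accession belongs to a listed gene was taken. This gave 16 probes of the 28174 that could be named and 10 genes of 20503. In all, 9 of the 10 genes passed the filter on dim probes and were among the 15552 genes tested, and ABCB1 did not.

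Copper enters mainly through SLC31A1, is handed to soluble chaperones and is moved out by ATP7A and ATP7B, and cisplatin and carboplatin can follow the same route. Inside the cell, platinum also reacts with glutathione, a step that glutathione transferases such as GSTP1 can assist, and the glutathione conjugates are substrates of ABCC pumps. ABCB1 (P-glycoprotein) and ABCG2 are known above all for expelling drugs other than platinum, among them taxanes and topoisomerase inhibitors, which are also given in ovarian cancer.

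The study silenced SFPQ, an RNA-binding splicing factor, in the epithelial ovarian cancer lines MDAH and SKOV3 and measured total RNA by single-colour hybridization. Each line gave 2 control arrays (control 1 and control 2) and 2 arrays of cells transduced with a lentiviral shRNA to SFPQ, 1 with sh-SFPQ#2 and 1 with sh-SFPQ#3, for 8 arrays in 4 groups of 2. The labels name every control as control-shRNA cells, whereas by the methods 1 control of a line was parental and 1 carried sh-ctrl, and controls are therefore described only as cells not silenced for SFPQ. No group was treated with platinum, and the silenced groups each hold both shRNAs, so that the spread within them includes any difference between the shRNAs.

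All arrays lay on 1 slide and were scanned together, with each line in a row of its own, and effects of the place on the slide cannot be told apart from those of the group. The 75th percentile of the signal lay between 387 and 496 on 7 of the 8 arrays and at 244 on the array of MDAH cells with sh-SFPQ#3. Of the 9 epithelial ovarian markers checked, including EPCAM, KRT8, KRT18 and PAX8, 8 were well above background on every MDAH array (MUC16 on none) and 6 on every SKOV3 array (CDH1 and MUC16 on 2 of 4, WT1 on none). CD3E, a T cell marker, was above background on no array, and CD14 was on all 8. PTPRC was on all 8 with its brightest probe, but its other probes were on 4, 0 and 0 of 8. The mesenchymal genes VIM and COL1A1 were above it on all 8 arrays and PDGFRB on none, and the endothelial genes PECAM1 and VWF on 1 and 2 MDAH arrays. Nothing states that replicates came from separate cultures, so p-values measure the spread between these samples, which may be technical.

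SFPQ itself was lower in every silenced array. Its level, as log2 signal minus the 75th percentile of the array (the scale of all levels here), was 3.64 and 3.91 in MDAH controls, against 2.45 (sh-SFPQ#2) and 2.10 (sh-SFPQ#3) in silenced MDAH cells. In SKOV3 the controls stood at 4.84 and 4.66, the sh-SFPQ#2 array at 3.01 and the sh-SFPQ#3 array at 2.48. The silenced arrays thus lay below both controls in each line. The change was -1.50 in MDAH (SE 0.23, limma adjusted p = 0.0328) and -2.01 in SKOV3 (SE 0.23, limma adjusted p = 0.0299), where p-values were adjusted by Benjamini-Hochberg over all 15552 genes. Calls were made at an adjusted p under 0.05, and that of SFPQ in each line was lost without the line's sh-SFPQ#3 array or without any one of the 4 controls (adjusted p between 0.0645 and 0.218 in MDAH and between 0.0677 and 0.118 in SKOV3).

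**Figure D1:**
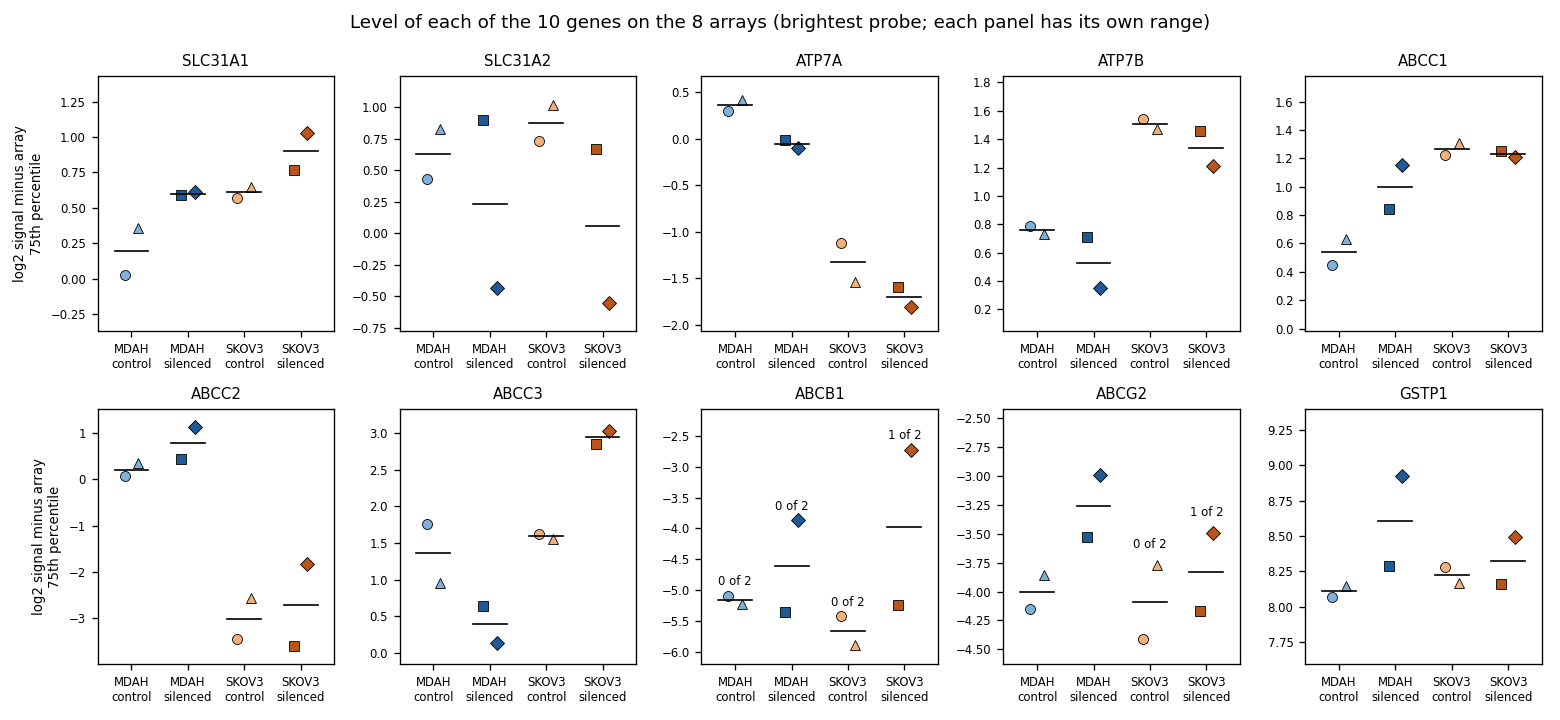
Level of the 10 genes on the 8 arrays, 1 panel per gene, as log2 signal minus the array's 75th percentile (y axis) by group (x axis), with 2 points per group (controls 1 and 2 as circle and triangle, sh-SFPQ#2 and sh-SFPQ#3 as square and diamond), a line at the mean, and "0 of 2" or "1 of 2" where fewer than both arrays were well above background. ATP7A and ABCC2 sit lower in SKOV3 than in MDAH, the sh-SFPQ#3 arrays of both lines stand apart from the others for SLC31A2, and ABCC3 moves down with silencing in MDAH and up in SKOV3.

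The largest differences among these genes lay between the controls of the lines, before any silencing. ABCC2 was 9.30-fold lower and ATP7A 3.22-fold lower in SKOV3 controls than in MDAH controls, while ATP7B and ABCC1 were 1.67-fold and 1.66-fold higher in SKOV3. The difference of ABCC2, -3.22 on the log2 scale, was -2.15 with normexp correction and quantile normalization, and that of ATP7A, -1.69, was -0.98 with the mean of its probes, both still called. These 4 of the 9 genes tested passed the test between the control groups, 2 in each direction, in a comparison in which 57.5% of all 15552 genes were called. Read against that share, 4 of 9 is not a result about these genes. The controls of the lines did not overlap for 6 of the 9 genes, and for 85.2% of all genes.

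Of the SLC31 genes, SLC31A1 (the main high-affinity copper importer, CTR1) had log2 levels of 0.03 and 0.36 in MDAH controls and of 0.57 and 0.65 in SKOV3 controls. The SKOV3 controls lay above both MDAH controls, by 0.41 (SE 0.17), and the test missed the threshold (limma adjusted p = 0.0828). Its dimmer probe gave a difference of 0.44 (limma adjusted p = 0.0666). SLC31A2 (CTR2, a related copper transporter found mostly on internal membranes) was at 0.43 and 0.83 in MDAH controls and 0.73 and 1.02 in SKOV3 controls. The groups overlapped, with a difference of 0.25 (95% confidence interval -1.01 to 1.51, limma adjusted p = 0.711).

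Both copper-exporting ATPases differed between the lines, in opposite directions. ATP7A (the Menkes disease ATPase) had log2 levels of 0.30 and 0.41 in MDAH controls and of -1.12 and -1.54 in SKOV3 controls on its brightest probe. No SKOV3 control came near the MDAH controls, and the difference was -1.69 (SE 0.19, limma adjusted p = 0.00037). ATP7B (the Wilson disease ATPase, often linked to cisplatin resistance in ovarian cancer) was at 0.79 and 0.73 in MDAH controls and at 1.54 and 1.47 in SKOV3 controls. Here the SKOV3 controls were the higher ones, by 0.74 (SE 0.18, limma adjusted p = 0.011). The ATP7B call was lost without MDAH control 2 (adjusted p = 0.0584) or without SKOV3 control 1 (adjusted p = 0.0611).

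The 4 probes of ATP7A, all listed under 1 accession, did not give the same difference. In the fit over every named probe, A_33_P3210885 (the brightest) differed by -1.69, A_33_P3210875 by -1.37 (limma adjusted p = 0.000363) and A_33_P3327772 by -0.63 (limma adjusted p = 0.0297). The last probe, A_23_P217737, read -1.57 and -1.69 in MDAH controls but -1.14 and -2.56 in SKOV3 controls. On that probe the SKOV3 controls lay on either side of the MDAH controls, and its difference of -0.22 (SE 0.41, limma adjusted p = 0.671) passed no test. Its SKOV3 silenced arrays read -2.92 and -2.89, close to control 2 and not to control 1.

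**Figure D2:**
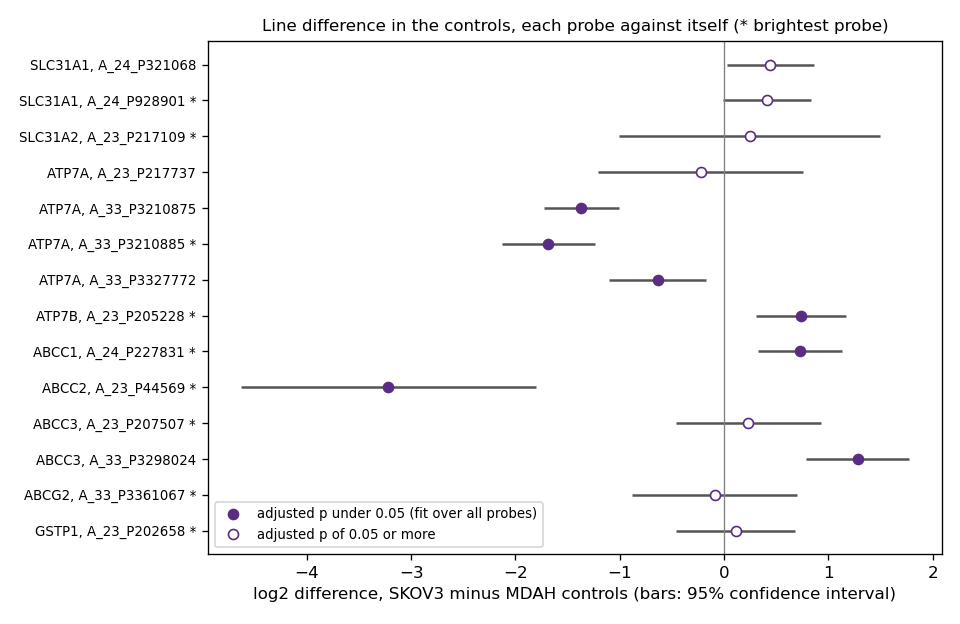
Difference in log2 level between SKOV3 and MDAH controls (x axis, bars are 95% confidence intervals, 2 arrays per line) for the 14 probes of these genes that passed the filter (y axis), with filled points for adjusted p under 0.05 in the fit over all probes. ABCC2 lies farthest from 0 at -3.22, 3 of the 4 ATP7A probes lie below 0 with filled points, and the second ABCC3 probe lies at 1.28 while the brightest lies at 0.23.

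The ABCC pumps covered the widest range. ABCC1 (MRP1, a broad exporter of glutathione conjugates) read 0.45 and 0.63 in MDAH controls and 1.22 and 1.31 in SKOV3 controls, a difference of 0.73 (SE 0.17, limma adjusted p = 0.00854). ABCC2 (MRP2, the apical conjugate pump of liver and kidney that has been tied to cisplatin resistance) read 0.06 and 0.36 in MDAH controls and -3.45 and -2.57 in SKOV3 controls. The lines did not overlap for either gene, and ABCC2 was the only one of these genes with a line difference over 2 on the log2 scale, at -3.22 (SE 0.60, limma adjusted p = 0.00361). It was well above background on all 8 arrays, the SKOV3 ones included. The ABCC1 call was lost without MDAH control 1 (adjusted p = 0.0581) or without SKOV3 control 2 (adjusted p = 0.054), and the ABCC2 and ATP7A calls held with any single array left out.

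ABCC3 (MRP3, a basolateral pump for glucuronide conjugates and bile salts) had 2 probes that belong to different RefSeq transcripts, A_23_P207507 to NM_003786 and A_33_P3298024 to NM_001144070. On the first, the brighter one, MDAH controls read 1.76 and 0.96 and SKOV3 controls 1.62 and 1.56, which overlapped (difference 0.23, SE 0.29, limma adjusted p = 0.524). On the second, MDAH controls read 0.33 and 0.58 and SKOV3 controls 1.81 and 1.65. There the lines were well apart, by 1.28 (SE 0.20, limma adjusted p = 0.00186 in the fit over every probe), so the line difference of ABCC3 depended on the probe.

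The remaining pumps were near or under the detection limit. ABCB1 had a probe printed in 10 spots, A_23_P82523, that was well above background on 0 of 8 arrays, and a second, A_33_P3332414, that was so on 1 of 8, SKOV3 with sh-SFPQ#3, at -2.72. No fold is given for it, since both control groups were below background. ABCG2 read -4.15 and -3.86 in MDAH controls, both well above background, and -4.41 and -3.77 in SKOV3 controls, neither well above background. It passed the filter through the MDAH groups, and its line difference of -0.09 (limma adjusted p = 0.841) turned to between 0.07 and 0.08 with each other scaling of the arrays.

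GSTP1 (the pi-class glutathione transferase, measured in 10 spots) read 8.07 and 8.15 in MDAH controls and 8.28 and 8.17 in SKOV3 controls. The SKOV3 values were just above the MDAH ones, by 0.11 (95% confidence interval -0.46 to 0.68, limma adjusted p = 0.716). No probe was saturated on any array.

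RefSeq promoters on GRCh38.p14 (from 250 bases before to 50 after the start) were at hand for 7 of the 10 genes. SLC31A2, ABCC1 and ABCC3 were without an entry. The promoters of the 3 genes with an entry that were called between the lines are shown, ATP7A and ABCC2 (lower in SKOV3) and ATP7B (higher in SKOV3), each 5′ to 3′ on the gene's own strand. They lie at chrX:77910443-77910742 (plus strand), chr10:99782390-99782689 (plus strand) and chr13:52012083-52012382 (minus strand). For ATP7B the first of 3 listed starts was used.
ATP7A: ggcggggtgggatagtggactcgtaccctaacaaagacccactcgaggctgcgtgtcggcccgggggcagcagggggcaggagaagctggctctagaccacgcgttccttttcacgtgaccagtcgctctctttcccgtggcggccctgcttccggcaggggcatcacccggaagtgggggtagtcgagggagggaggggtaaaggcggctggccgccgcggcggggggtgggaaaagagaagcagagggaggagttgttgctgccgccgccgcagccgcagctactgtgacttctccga
ABCC2: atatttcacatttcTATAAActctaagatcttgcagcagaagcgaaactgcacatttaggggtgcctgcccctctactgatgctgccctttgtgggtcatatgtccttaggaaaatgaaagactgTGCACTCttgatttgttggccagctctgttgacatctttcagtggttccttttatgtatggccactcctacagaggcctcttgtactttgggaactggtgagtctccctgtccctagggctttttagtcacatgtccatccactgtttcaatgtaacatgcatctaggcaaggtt
ATP7B: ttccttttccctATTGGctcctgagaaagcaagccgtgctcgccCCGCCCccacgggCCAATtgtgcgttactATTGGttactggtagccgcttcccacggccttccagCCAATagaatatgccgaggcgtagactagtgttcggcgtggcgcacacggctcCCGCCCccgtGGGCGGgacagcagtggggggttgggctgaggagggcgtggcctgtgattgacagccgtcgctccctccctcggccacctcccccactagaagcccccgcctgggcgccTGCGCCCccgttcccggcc
Capitals mark matches, on either strand, to 5 kinds of motif. A GC box was searched as GGGCGG, and the core of an antioxidant response element as TGACNNNGC. The core of a metal response element was searched as TGCACNC, and in its other common spelling as TGCGCNC. The CCAAT box was searched by the letters of its name, and a TATA box as TATAAA. Matches of different motifs did not overlap in these sequences.

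The ATP7B promoter held 3 GC boxes, 4 CCAAT boxes and 1 metal response core. That of ABCC2 held 1 match to the TATA box letters and 1 metal response core. The TATA match lay near the 5′ end of the printed stretch, far from the start of the gene. The ATP7A promoter held none of these motifs, although it was as rich in G and C as that of ATP7B (66.7% each, against 45.0% in ABCC2). Of 27305 promoters of the same length, the median G and C content was 58.3%, and 44.6% held a GC box, 35.7% a CCAAT box, 29.3% a metal response core, 13.6% an antioxidant response core and 12% a TATA box. Of the 7 promoters at hand, that of GSTP1 alone had an antioxidant response core. The motifs describe the sequences only.

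SFPQ silencing left none of the 9 genes past the threshold in either line. In MDAH 0 of 9 were called by limma, against 2.03% of all genes, with 2 at an unadjusted p under 0.05 (23.1% of all genes). In SKOV3 0 of 9 were called, against 0.997% of all genes, with 1 at an unadjusted p under 0.05 (19.5% of all genes). Read against these shares, the counts of 0 are not a result about these genes. The median change was 0.40 in MDAH (all genes 0.10) and 0.11 in SKOV3 (all genes -0.04). In RNA of a whole culture, fewer cells making a transcript and less of it per cell cannot be told apart.

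**Figure D3:**
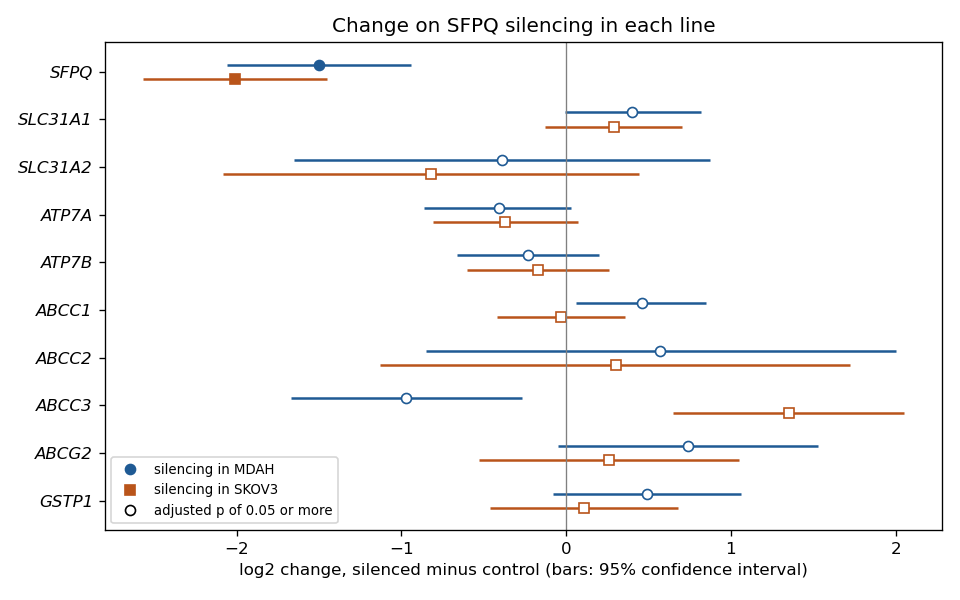
Change in log2 level on SFPQ silencing (x axis, bars are 95% confidence intervals, 2 silenced against 2 control arrays) for SFPQ and the 9 genes tested (y axis), in MDAH (blue circles) and SKOV3 (orange squares), with filled symbols for adjusted p under 0.05. SFPQ alone has filled symbols, and ABCC3 has its intervals on opposite sides of 0, at -0.97 in MDAH and 1.35 in SKOV3.

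The importer SLC31A1 read 0.59 with sh-SFPQ#2 and 0.61 with sh-SFPQ#3 in MDAH, both above the 2 controls (change 0.40, SE 0.17, limma adjusted p = 0.227). In SKOV3 it read 0.77 and 1.03, again above both controls (change 0.29, SE 0.17, limma adjusted p = 0.403). Averaged over the lines, the change was 0.34 (95% confidence interval 0.05 to 0.64, limma adjusted p = 0.14). The dimmer probe was also above both controls in MDAH (change 0.48, limma adjusted p = 0.172) and overlapped with them in SKOV3 (change -0.08, limma adjusted p = 0.813).

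Among the copper exporters, ATP7A read -0.02 and -0.10 in silenced MDAH cells and -1.59 and -1.81 in silenced SKOV3 cells. These 4 values, from the brightest probe, lay below the controls of their line (changes -0.41 and -0.37). The average change of -0.39 (SE 0.13) did not pass the test (limma adjusted p = 0.122). No other ATP7A probe lay below the controls in both lines. Changes in MDAH and SKOV3 were -0.45 and -0.13 on A_33_P3210875 and -0.15 and 0.07 on A_33_P3327772. On A_23_P217737 they were -0.04 and -1.05, with SKOV3 controls apart at -1.14 and -2.56. ATP7B read 0.71 and 0.35 in silenced MDAH cells and 1.46 and 1.21 in silenced SKOV3 cells, just below the controls of each line (changes -0.23 and -0.17, limma adjusted p = 0.475 and 0.625). In the average over lines 0 of the 9 genes were called, against 5.66% of all genes, with SLC31A1 and ATP7A at an unadjusted p under 0.05 (26.4% of all genes).

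ABCC1 read 0.84 and 1.15 in silenced MDAH cells, above both controls (change 0.46, SE 0.17, limma adjusted p = 0.173), and 1.25 and 1.21 in silenced SKOV3 cells, where it overlapped with the controls (change -0.03, 95% confidence interval -0.42 to 0.36). ABCC2 read 0.43 with sh-SFPQ#2 and 1.13 with sh-SFPQ#3 in MDAH, and -3.61 and -1.82 in SKOV3. The SKOV3 silenced arrays lay on either side of their controls, and both intervals were wide (MDAH change 0.57, 95% confidence interval -0.85 to 2.0, and SKOV3 change 0.30, 95% confidence interval -1.13 to 1.72).

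ABCC3 was the gene of this set with the largest changes in both lines, and they pointed in opposite directions. On its brightest probe, silenced MDAH cells read 0.64 with sh-SFPQ#2 and 0.14 with sh-SFPQ#3, below both controls (1.76 and 0.96). Silenced SKOV3 cells read 2.85 and 3.03, above both controls (1.62 and 1.56). The change was -0.97 in MDAH (SE 0.29, limma adjusted p = 0.129) and 1.35 in SKOV3 (SE 0.29, limma adjusted p = 0.091). The difference between these changes was -2.32 (95% confidence interval -3.30 to -1.33), with an unadjusted limma p of 0.000958 and an adjusted p of 0.137. For that difference 0 of the 9 genes and 0.0965% of all genes were called, and 1 of the 9 (ABCC3) and 14.9% of all genes had an unadjusted p under 0.05.

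The second ABCC3 probe did not show this pattern. It read -0.09 and 0.23 in silenced MDAH cells and 1.83 and 1.47 in silenced SKOV3 cells, with changes of -0.38 (limma adjusted p = 0.31) and -0.08 (limma adjusted p = 0.854). In MDAH its silenced arrays lay below both controls, as on the first probe, and in SKOV3 they overlapped with the controls. The difference between the lines' changes was -0.30 on this probe (limma adjusted p = 0.638). The MDAH change on the first probe rested in part on the distance of its controls, and was -0.57 without MDAH control 1 and -1.37 without MDAH control 2.

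**Figure D4:**
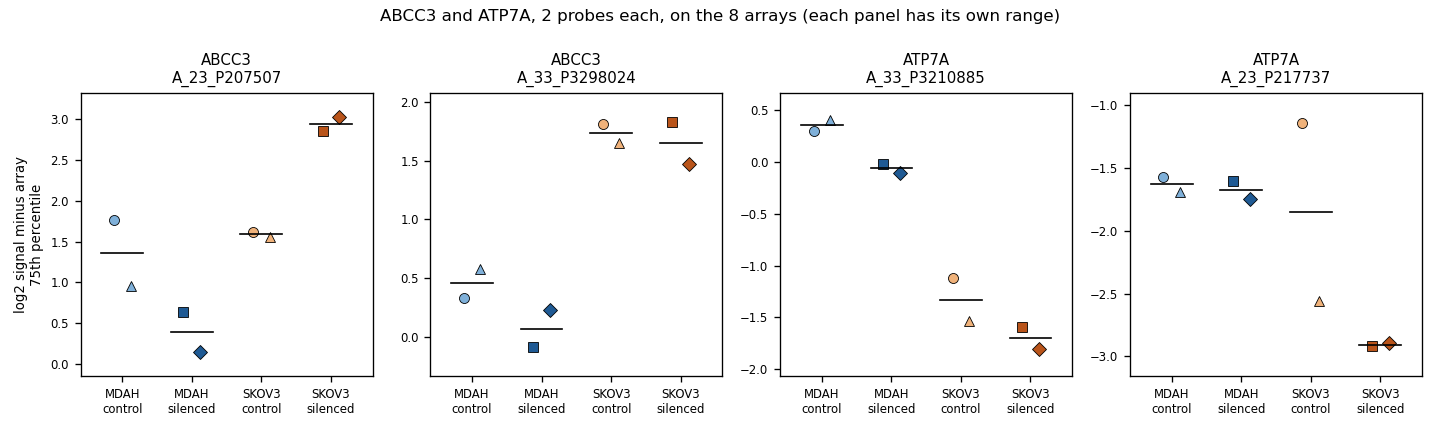
Level of ABCC3 and ATP7A on 2 probes each, as log2 signal minus the array's 75th percentile (y axis) by group (x axis), with controls 1 and 2 as circle and triangle, sh-SFPQ#2 and sh-SFPQ#3 as square and diamond, and a line at each group's mean. The rise of ABCC3 in silenced SKOV3 arrays to 2.85 and 3.03 is seen on A_23_P207507 and not on A_33_P3298024, and SKOV3 control 1 stands apart at -1.14 on ATP7A probe A_23_P217737.

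ABCG2 read -3.53 and -2.99 in silenced MDAH cells, above both controls (change 0.74, limma adjusted p = 0.236). That change lay between 0.27 and 0.87 over the other processing choices. The lowest signals well above background were themselves higher on the silenced MDAH arrays (-4.3 and -3.81) than on the controls (-4.87 and -4.89). The part of this in the ABCG2 change was not tested. In silenced SKOV3 cells ABCG2 read -4.17 and -3.49, of which only the sh-SFPQ#3 array was well above background. No silenced MDAH array of ABCB1 was well above background on either probe. GSTP1 read 8.29 and 8.92 in silenced MDAH cells (change 0.49, SE 0.24, limma adjusted p = 0.265) and 8.16 and 8.49 in silenced SKOV3 cells (change 0.11, limma adjusted p = 0.823). Its highest value of the 8 was on the dimmest array, MDAH with sh-SFPQ#3, and the MDAH change was 0.15 with normexp correction and quantile normalization. The part of that array's low signal in the value was not tested.

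Within the silenced cells, SLC31A2 differed between the shRNAs. It read 0.90 with sh-SFPQ#2 and -0.43 with sh-SFPQ#3 in MDAH, and 0.67 and -0.55 in SKOV3. The sh-SFPQ#2 arrays lay close to the controls of their line and the sh-SFPQ#3 arrays lay below every other array, with a difference between the shRNAs of -1.33 in MDAH and -1.22 in SKOV3. The comparison of the shRNAs over both lines, added after the values had been seen, gave -1.28 (SE 0.19, limma adjusted p = 0.0328). SLC31A2 was the 1 of the 9 genes called, in a comparison that called 3.02% of all genes. The call was lost without any one of the 4 silenced arrays (adjusted p between 0.104 and 0.148) or without either MDAH control (adjusted p = 0.0798). The silencing change of SLC31A2, which averages the shRNAs, was -0.39 in MDAH and -0.82 in SKOV3 (limma adjusted p = 0.684 and 0.429).

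**Figure D5:**
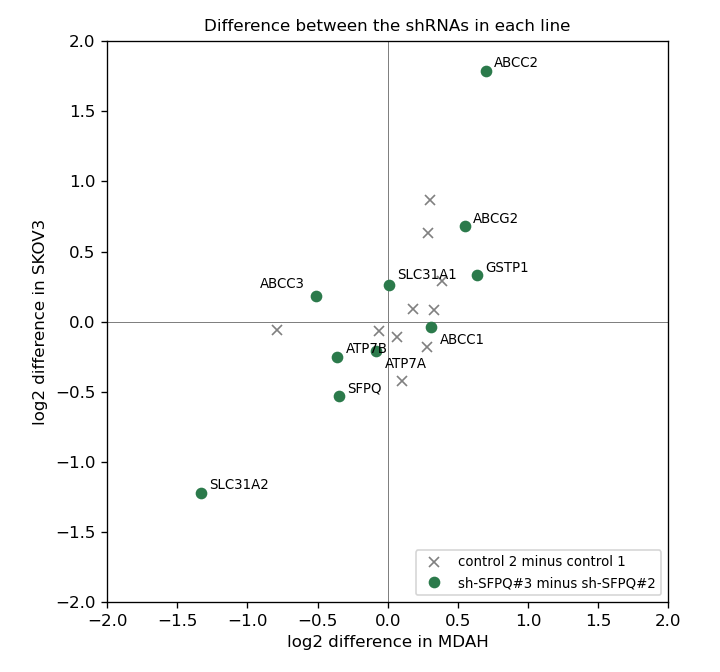
Difference in log2 level between sh-SFPQ#3 and sh-SFPQ#2 in MDAH (x axis) and SKOV3 (y axis) for SFPQ and the 9 genes tested (green points), with the difference between control 2 and control 1 of the same genes as grey crosses. SLC31A2 lies at -1.33 and -1.22, outside the range of the crosses on both axes, and ABCC2 at 0.70 and 1.79.

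ABCC2, GSTP1 and ABCG2 leaned the other way. ABCC2 was higher with sh-SFPQ#3 by 0.70 in MDAH and 1.79 in SKOV3 (over both lines 1.24, SE 0.37, limma adjusted p = 0.148), and GSTP1 by 0.64 and 0.33 (over both lines 0.48, SE 0.14, limma adjusted p = 0.143). ABCG2, near the detection limit, was higher by 0.55 and 0.68 (over both lines 0.61, SE 0.24, limma adjusted p = 0.235). None of them passed the threshold. With SLC31A2 these made 4 of the 9 genes at an unadjusted limma p under 0.05 (19.8% of all genes). SFPQ differed between sh-SFPQ#3 and sh-SFPQ#2 by -0.35 in MDAH and -0.53 in SKOV3 (over both lines -0.44, limma adjusted p = 0.212), so the shRNA and the depth of silencing cannot be told apart.

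The genes around this machinery were read from 5 wider lists (copper and platinum entry, copper chaperones, copper and platinum exit, ABC transporters and glutathione transferases), which added 46 genes, 45 with a probe and 35 tested. In MDAH 1 of these 35 was called, lower (2.03% of all genes were called), in SKOV3 1 was called, higher (0.997% of all genes), and in the average of the lines 1 was called higher and 4 lower (5.66% of all genes). The median change was 0.02 in MDAH and -0.04 in SKOV3. For the difference between the lines' changes 0 of the 35 and 15 of all 15552 genes were called.

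COMMD1, a protein that binds ATP7B and takes part in copper export, had the largest average change among the 5 genes called. It read 3.36 and 3.37 in MDAH controls, against 1.77 (sh-SFPQ#2) and 0.34 (sh-SFPQ#3) in silenced MDAH cells. The SKOV3 controls read 3.29 and 3.47, the sh-SFPQ#2 array 2.15 and the sh-SFPQ#3 array 0.39. Every silenced array lay below all 4 controls, and sh-SFPQ#3 lay lowest in both lines. The average change was -2.21 (SE 0.45, limma adjusted p = 0.0423), and it passed neither line's own test (limma adjusted p = 0.111 in MDAH and 0.154 in SKOV3). With single arrays left out it lay between -2.65 and -1.77, and its call was lost without sh-SFPQ#3 of either line or any one control (adjusted p between 0.0728 and 0.165).

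The other genes lower in the average were COX11, a copper chaperone of cytochrome oxidase, by -0.59 (limma adjusted p = 0.0403), LRRC8D (outside the rule for named genes, and named after its values were seen), a subunit of the volume-regulated anion channel that can admit cisplatin, by -0.53 (limma adjusted p = 0.0485), and the glutathione transferase GSTM4, by -0.82 (limma adjusted p = 0.0353). The GSTM4 average came from MDAH. In SKOV3 it read -1.49 and -1.36 in controls and -1.19 and -1.03 after silencing, above both controls (change 0.32, limma adjusted p = 0.45), and with normexp correction and quantile normalization the average was -0.01 (adjusted p = 0.931). LRRC8D read 1.69 and 1.69 in MDAH controls and 1.20 and 1.07 after silencing, and 2.63 and 2.52 in SKOV3 controls and 2.23 and 1.93 after silencing, and no silenced array reached a control of its line. The other LRRC8 subunits of that channel on the list had positive average changes, none called: LRRC8A 0.42 (limma adjusted p = 0.185), LRRC8B 0.42 (0.0694), LRRC8C 0.20 (0.448) and LRRC8E 0.51 (0.0602). COX11 was -0.30 and not called when its 3 probes were averaged. GSTM4 was the gene called in MDAH, from -3.89 and -4.23 in controls to -6.27 and -5.78, neither of which was well above background, so no fold is given. The lowest signals well above background on those silenced arrays were -4.3 and -3.81, about the level of the controls. A fall of GSTM4 beyond the detection limit was thus not shown. With normexp correction its MDAH change was -0.25, and the call was lost (adjusted p = 0.253). That call was also lost without MDAH control 1 (adjusted p = 0.159) or control 2 (adjusted p = 0.0759).

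GSTA4, a transferase for products of lipid peroxidation, was the gene called in SKOV3 and the 1 called higher in the average. It read -3.05 and -3.19 in SKOV3 controls and -2.08 and -1.99 after silencing, a change of 1.09 (SE 0.14, limma adjusted p = 0.0299), while in MDAH it read 1.88 and 1.84 in controls and 1.74 and 1.79 after silencing. The difference between the lines' changes was not called (-1.18, limma adjusted p = 0.114). With normexp correction and quantile normalization the SKOV3 change was 0.55 (adjusted p = 0.0544), and its SKOV3 call was lost without any one of the 4 controls or without sh-SFPQ#3 of SKOV3 (adjusted p between 0.107 and 0.128). In the average, the calls of GSTA4, COX11, GSTM4 and LRRC8D were each lost without any one of the 4 controls, and also without sh-SFPQ#3 of either line (GSTA4 and LRRC8D), sh-SFPQ#3 of MDAH or sh-SFPQ#2 of SKOV3 (COX11) and either silenced SKOV3 array (GSTM4), with adjusted p between 0.0502 and 0.175.

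Between the controls of the lines 28 of the 35 wider genes were called, 14 higher and 14 lower in SKOV3, in the comparison that called 57.5% of all genes. MGST1, a membrane-bound glutathione transferase, read 2.90 and 3.46 in SKOV3 controls and was below background in MDAH controls, which makes it at least 266-fold higher in SKOV3 (limma adjusted p = 1.3e-06). GSTO2, an omega-class transferase, read 3.17 and 3.11 in MDAH controls and was below background in SKOV3 controls, at least 140-fold lower there (limma adjusted p = 1.86e-06). These bounds set the bright controls against the lowest signal well above background on the dim arrays, and they hold for the main scaling only. With normexp correction and quantile normalization the log2 differences of MGST1 (6.0) and GSTO2 (-5.77) were smaller than these bounds. GSTM4 and GSTM2 were higher in SKOV3, by 2.63 on the log2 scale and by at least 2.36-fold (GSTM2 well above background on 1 of 2 SKOV3 controls), and GSTA4 and the ABCC pump ABCC6 were lower, with differences of -4.98 and -4.81 on the log2 scale. With normexp correction and quantile normalization GSTM4 differed by 1.29, and GSTM2 by 0.46, under its bound, with its call lost (adjusted p = 0.0613). The GSTM genes are close copies of each other, and their probes may share signal.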

How the data were processed

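The authors deposited scanner output in which, per the file headers, Feature Extraction had subtracted background and spatial trends, so that each spot's processed signal is a linear intensity, not normalized between arrays. The processing notes name Feature Extraction 10.7.3.1 and the headers a later version. The labels and the methods also differ on the amount of RNA labelled. A log2 table that the authors deposited too matched quantile-normalized log2 signals minus each probe's median over the arrays (r of at least 0.9999 on each array). Its steps are not given in the sources used here, and it served as an alternative.

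Here control spots and outlier spots were left out, spots of a probe averaged, and log2 signals set against each array's 75th percentile. Probes were named through RefSeq accessions (28174 named of 50599, for 20503 genes). The brightest probe stood for a gene, and a gene was tested if both arrays of a group were well above background, called for a probe with at least 0.5 of its spots so marked. This spot rule was settled after results were seen. limma 3.58.1 (R 4.3.3) fitted the 4 groups together (4 residual and 6.69 total degrees of freedom, moderated two-sided test, Benjamini-Hochberg over 15552 genes, threshold 0.05). All probes were also fitted one by one. The fit was tested on simulated data.

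The genes and lists were chosen with earlier results of these data known. The text names the 10 genes with every probe, SFPQ, markers, the 3 highest and 3 lowest called genes of the wider lists in each comparison, and the 2 genes most correlated with each of the 10 tested. Alternatives were 3 other scalings (median, quantile, normexp with offset 50 and quantile), the value table, the dim-probe filter, probe choice, prior settings, fewer arrays in the fit, a replicate block and each array left out. Probe sequences were not used here. The number of arrays limits the precision, and intensities carry no count depth.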

Additional observations from a re-analysis of the deposited data

Results flagged for a closer look

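ABCC3 moved in opposite directions in the lines. On its brightest probe every silenced MDAH array lay below both MDAH controls and every silenced SKOV3 array above both SKOV3 controls. Silenced and control arrays were separated, in either direction, for 57% of all genes in MDAH and for 58% in SKOV3. These shares are for each line alone. The share of all genes separated in both lines and in opposite directions was not counted. The change of ABCC3 in MDAH minus that in SKOV3 was -2.32 on the log2 scale (SE 0.41). The test of this difference did not pass over all genes (limma adjusted p = 0.137). The adjusted p lay between 0.0804 and 0.209 over the 11 alternatives and between 0.0711 and 0.438 with single arrays left out, and the difference kept its sign in each. The second ABCC3 probe, for another transcript, gave a difference of -0.30.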

How the results depend on the processing

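No change of the array scaling, filter, probe choice, prior or arrays in the fit brought one of the genes past the threshold for silencing in MDAH or for the difference between lines. For silencing in SKOV3 the count was 1 in place of 0 with normexp and quantile normalization (ABCC3, 1.30, adjusted p = 0.0493) and 1 with the replicate block, control and shRNA numbers shared over the lines (SLC31A2, -0.82, adjusted p = 0.0499), which also gave 1 in place of 0 in the average of the lines. Deviations from the group means correlated at 0.08 over the control numbers, which name no shared source, and at 0.36 over the silenced ones, where the number is the shRNA that both lines share, and with the replicate block all genes called rose from 316 to 862 in MDAH and from 155 to 688 in SKOV3. Centring arrays on the median moved the median of all genes by 0.16 between the controls of the lines and by 0.11 for silencing in MDAH. The median of the difference between the lines' changes moved by 0.14 with median centring and by -0.11 with normexp.

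SFPQ kept its direction throughout and missed the threshold in MDAH with median centring (-1.39, adjusted p = 0.061), without a filter (-1.50, adjusted p = 0.051) and with the MDAH arrays alone (-1.50, adjusted p = 0.0628), and in SKOV3 without a filter (-2.01, adjusted p = 0.0599) and with the SKOV3 arrays alone (-2.01, adjusted p = 0.157). With single arrays left out SFPQ ranged from -1.68 to -1.33 in MDAH and from -2.27 to -1.74 in SKOV3, the silencing counts stayed at 0, the count between controls ranged from 3 to 4 and that between shRNAs from 0 to 1.

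Between controls, SLC31A1 was called with median centring (0.56, adjusted p = 0.0358) and ABCC3 with the mean of its probes (0.76, adjusted p = 0.00542). Small values changed sign. ABCC1 in SKOV3 was 0.01 with the value table and 0.01 with quantile normalization. ABCG2 between controls was 0.07 with median centring, 0.07 with the value table, 0.08 with normexp and 0.07 with quantile normalization. With single arrays left out, changes in SKOV3 ranged from -0.08 to 0.02 (ABCC1), -0.60 to 1.19 (ABCC2), -0.08 to 0.60 (ABCG2) and -0.06 to 0.27 (GSTP1), that of SLC31A2 in MDAH from -1.06 (without sh-SFPQ#2) to 0.27 (without sh-SFPQ#3), and differences between controls from -0.16 to 0.63 (ABCC3) and -0.40 to 0.23 (ABCG2). Among the wider genes, calls in the average of the lines were lost with median centring (COMMD1, adjusted p = 0.0525, COX11, 0.0535, and LRRC8D, 0.0891), without a filter (COMMD1 and COX11, 0.0728 each, GSTM4, 0.0644, GSTA4, 0.0729, and LRRC8D, 0.0834), with a robust prior (LRRC8D, 0.0512) and, for GSTA4, with the mean of its probes (0.106) or normexp (0.186). In single lines, GSTA4 in SKOV3 was lost with the mean of its probes (0.0813), without a filter (0.0636) and with the SKOV3 arrays alone (0.157), and GSTM4 in MDAH with the MDAH arrays alone (0.0518). With normexp and quantile normalization, differences between controls were smaller for MGST1 (6.0), GSTO2 (-5.77), GSTA4 (-3.75) and ABCC6 (-3.50) but still called. The causes were not tested. Signal near background limits ABCB1 and ABCG2.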

Other observations

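For each gene, the 2 genes with the most similar course over the 8 arrays were named by Pearson's r of log2 levels, as a description that rests on 2 lines and 8 arrays drawn from 15552 genes. For SLC31A1 they were BLM (0.993) and PLEKHH3 (0.989), and for SLC31A2, whose course follows the sh-SFPQ#3 arrays, GABBR2 (0.990) and WAC (0.969). For ATP7A they were LRRC61 and CERS4 (0.998 each), and for ATP7B UBE2R2 (0.997) and SH3GL3 (0.996). For ABCC1 they were EXTL2 (0.996) and PTDSS1 (0.993), and for ABCC2 C2CD4D (0.993) and LYL1 (0.990). The brightest ABCC3 probe had PPAN-P2RY11 (0.968) and CCDC30 (0.967). ABCG2 had P4HA2 (0.973) and RAVER1 (0.966), and GSTP1 had C5orf22 (0.982) and DHRS11 (0.978).

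ABCB1, the gene not tested, was well above background on its single-spot probe on the array of SKOV3 cells with sh-SFPQ#3 alone, at -2.72, and its 10-spot probe read below background on the same array. Readings below background have no order and are not compared.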
